A study of Homo sapiens with 24 samples.

Results

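The mRNAs of the collagen, laminin and integrin chains were followed through total and polysomal RNA of A2058 cells, an established human melanoma cell line (the line named by the labels and by the study's polysome methods). Members were all protein-coding genes of the count table whose symbol has the form of a collagen chain (COL, number, A, number), a laminin chain (LAMA, LAMB or LAMC with a number) or an integrin subunit (ITGA or ITGB with its number or letter). There were 81 such genes among the 20345 gene IDs listed, of which 19086 were protein-coding: 43 collagens, 12 laminins and 26 integrins. The cells carried a control siRNA (siCTRL) or an siRNA against LSM14A (siLSM14A), the latter at 20 nM by the study's methods, and were left untreated (NT) or given hydroxyurea (HU), an inhibitor of ribonucleotide reductase, at 10 mM for 2 h. Each of the 4 conditions had 3 replicates, and each replicate number has 1 library of total RNA and 1 of polysomal RNA, 24 libraries in all. Libraries with the same condition and number are taken here as 1 culture, because the study's methods extract input samples beside the gradient fractions, but the labels share only the number. All cells, controls included, received cycloheximide, which holds ribosomes on mRNAs, before lysis. LSM14A is the human ortholog of yeast Scd6, an RNA-binding protein of cytoplasmic granules, and the comparisons asked which mRNAs changed in their association with heavy polysomes. Knockdown is transient and incomplete, and all samples come from 1 cell line. The labels number the replicates without saying what separates them, so p-values measure the spread between these samples, which may be technical.

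Collagens form triple helices from chains in which glycine recurs regularly (Gly-X-Y repeats), and laminins are crosses of 1 alpha, 1 beta and 1 gamma chain that build basement membranes. Integrins are pairs of 1 alpha and 1 beta subunit that span the plasma membrane and bind these matrix proteins outside the cell and actin adaptors inside it. All are made by ribosomes docked on the endoplasmic reticulum, to which most of the chains are directed by a signal sequence. The mRNAs are long, so that many ribosomes fit on one of them. In melanoma, collagen IV, laminins and integrins of the beta1 and beta3 type are known for their part in adhesion and invasion. The lysis buffer held detergent, and the sucrose gradient did not separate free polysomes from those that had been bound to membranes: polysomal RNA here is the RNA of the heavy fractions as a whole. The study's methods give that pool in one place as a numbered run of fractions and in another as a count of the heaviest ones, which do not match, so its lower bound is uncertain.

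The libraries held 24.8 to 44.9 counts times 10 to the power of 6. LSM14A itself lay at 80.9 to 91.0 CPM (counts scaled to a common library total of 10 to the power of 6, normalised by TMM) in the siCTRL total RNA libraries and at 6.14 to 8.31 CPM in those of siLSM14A. Among markers of cell types, 8 genes of the melanocyte lineage and melanoma summed to 2152 to 2402 CPM in total RNA with none below 1 CPM, whereas 4 endothelial genes summed to 3.21 to 4.71 CPM and 5 leukocyte genes to 2.22 to 4.04 CPM. Medians of the melanocyte and melanoma genes ran from 781 CPM for DCT and 605 for SOX10 down to 7.97 for MLANA and 4.74 for TYRP1. Fibroblast markers (6 genes) summed to 45.2 to 58.1 CPM, with LUM highest at a median of 36.4 CPM. Keratinocyte markers (5 genes) summed to 54.3 to 72.9 CPM, with KRT10 at a median of 58.2 CPM, KRT14 at 1.72 and KRT5 at 0. The 4 genes of dedifferentiated melanoma summed to 202 to 266 CPM. Their medians were 174 CPM for AXL, 44.9 for NGFR, 1.11 for SOX9 and 0 for EGFR. The cultures were of 1 cell line, and such bulk samples do not show how the marker RNA is spread over its cells.

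Of the 81 members, 57 had 10 counts or more in every library, 4 had 0 counts in all 24 (COL23A1, ITGA8, COL9A1 and COL6A6) and 11 had at most 3 counts in every library. A filter on low counts kept 64 members in at least 1 of the comparisons of polysomal with total RNA, and 17 were never tested there. The untested members included COL1A2, an alpha chain of type I collagen, at 0 to 0.0912 CPM in total RNA and 0 to 0.239 CPM in polysomal RNA, and its partner COL1A1 lay at 0.957 to 1.59 CPM in total RNA. Type I collagen, the main product of fibroblasts, was therefore present at the margin of detection.

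Per kb of transcript, the most abundant members in total RNA of untreated siCTRL cells included basement membrane chains and their receptors. ITGB1, the beta1 integrin subunit shared by most matrix-binding integrins, came first at 182 CPM per kb, followed by COL9A3 (a chain of the fibril-associated collagen IX) at 138, LAMC1 at 132, LAMB1 at 117 and COL4A2 at 113 CPM per kb. In polysomal RNA the order differed. COL4A2 came first at 322 CPM per kb, then LAMC1 at 232, LAMB1 at 196, COL9A3 at 192 and ITGA3 at 146, and ITGB1 had rank 7 at 120.3 CPM per kb. LAMB2, which ranked 16 in total RNA at 18.7 CPM per kb, ranked 8 in polysomal RNA at 99.6, and ITGB8 moved from 13.5 CPM per kb (rank 19) to 4.35 (rank 29).

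**Figure D1:**
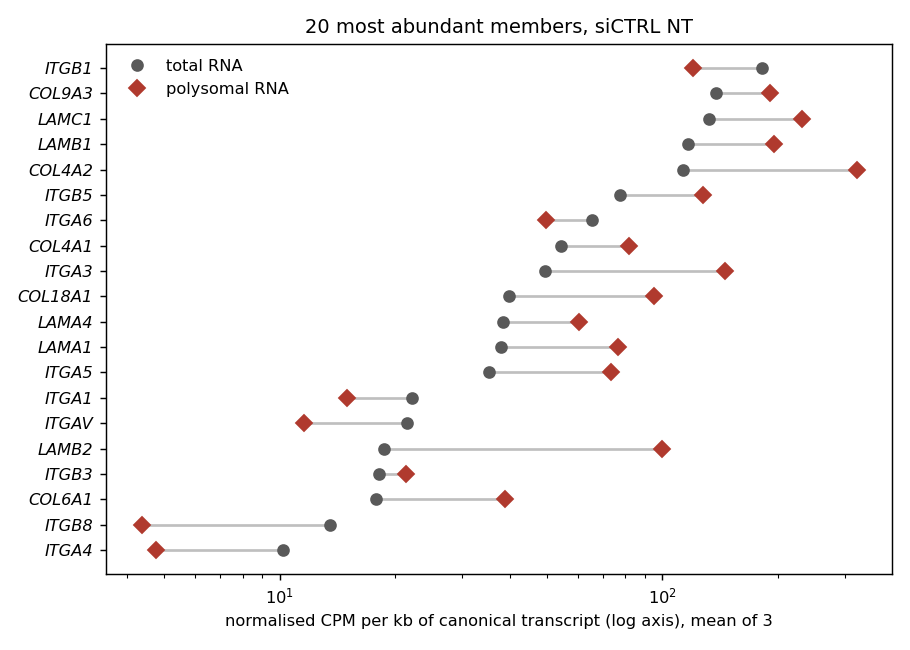
Mean normalised CPM per kb of the canonical transcript (log axis; 3 siCTRL NT libraries each) in total RNA (grey circles) and polysomal RNA (red diamonds) for the 20 members most abundant in total RNA. COL4A2 moves from 113 to 322 CPM per kb and ITGB8 from 13.5 to 4.35, so that the order of the members differs between the fractions.

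The ratio of polysomal to total RNA was tested gene by gene within each condition, and a gene was called at an adjusted p under 0.05 over all protein-coding genes tested. In untreated siCTRL cells, 36 of 63 tested members (57.1%) were higher in polysomal RNA and 8 (12.7%) were lower, against 31.4% and 32.3% of all 12431 genes tested. The median log2 ratio was 0.65 over the members and -0.03 over all genes. With HU, 32 of 63 were higher and 10 lower in siCTRL cells (36.2% and 37.4% of all genes), with a median of 0.68. In siLSM14A cells, 27 of 64 were higher and 9 lower without HU (32.1% and 32.3% of all genes; median 0.54), and 35 of 63 were higher and 9 lower with HU (32.8% and 34.1% of all genes; median 0.66). Single libraries moved these counts. Without siCTRL NT replicate 2, 25 members were higher and 2 lower (17.3% and 12.2% of all genes), without replicate 1, 30 and 4 (23.6% and 23.3%), and without replicate 3, 36 and 11 (32.9% and 34.3%). In siLSM14A NT there were 21 and 2 without replicate 3 (21.1% and 19.8%), 26 and 7 without replicate 2 (25.9% and 23.7%) and 27 and 13 without replicate 1 (31.8% and 34.2%). The ratio is relative to the bulk of the mRNAs, because TMM sets the typical gene near 0. With library sizes alone as the scale, a choice made after the data were seen, the median of all genes fell to between -0.33 and -0.45. The members then had 27, 23, 20 and 30 higher calls and 11, 15, 12 and 12 lower calls in siCTRL NT, siCTRL HU, siLSM14A NT and siLSM14A HU, against 20.2%, 23%, 19.5% and 20.7% of all genes higher and 45.2%, 51.8%, 46.9% and 48.9% lower.

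Across the 4 conditions, 25 members were called higher in polysomal RNA every time and 7 were called lower every time (ITGB8, ITGA4, ITGAV, ITGB1, ITGAE, COL27A1 and COL19A1). These are 39.1% and 10.9% of the 64 members tested in at least 1 condition, against 27.2% and 26.5% of the 12640 genes so tested. A further 15 were higher in 1 to 3 conditions, 4 were lower in 1 to 3, and 13 of the 64 had no call. For these counts the shares of all genes were not computed. Of the 7 that were always lower, 5 were integrin subunits and 2 were collagens, and no laminin was called lower in any condition.

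**Figure D2:**
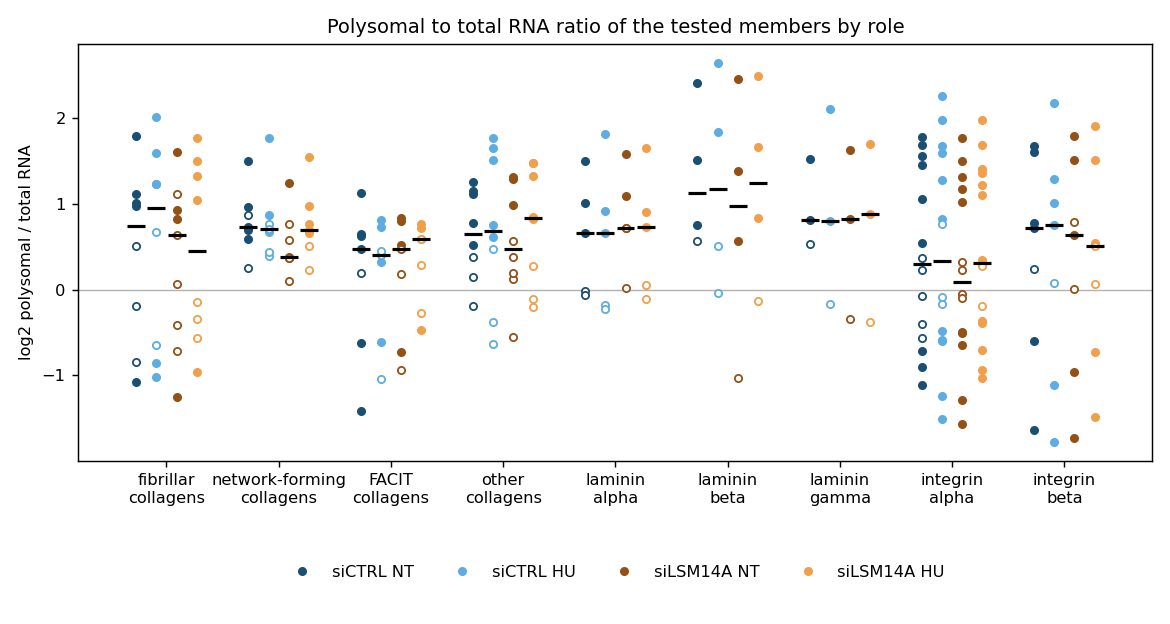
Log2 ratio of polysomal to total RNA of every tested member by the role of its chain, with 1 column of points per condition (colours); filled points passed the adjusted p of 0.05, open points did not, and black bars are medians. The laminin beta and gamma chains and the network-forming collagens sit mostly above 0, whereas the integrin alpha subunits spread from -1.11 to 1.78 in siCTRL NT.

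Collagens were called higher in 18, 15, 11 and 17 of the 30 or 31 tested in siCTRL NT, siCTRL HU, siLSM14A NT and siLSM14A HU, and lower in 3, 3, 2 and 2. The shares higher were 60.0%, 50.0%, 35.5% and 56.7%, beside 31.4%, 36.2%, 32.1% and 32.8% of all genes, so that in siLSM14A NT the share was near that of all genes. With the replicate block 8 of 31 were higher there. The most abundant network-forming collagens were the alpha1 and alpha2 chains of collagen IV, the scaffold of basement membranes, which assemble as 2 alpha1 chains with 1 alpha2 chain. The coding sequences of these chains consist largely of Gly-X-Y repeats, with the glycine codon (GGN) in capitals, shown here as 5 repeats from the middle of the longest unbroken run. The run holds 66 repeats in COL4A2 and 40 in COL4A1, and 217 in COL27A1, a fibrillar collagen shown for contrast because its ratio was low.
COL4A2: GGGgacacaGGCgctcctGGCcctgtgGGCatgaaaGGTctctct
COL4A1: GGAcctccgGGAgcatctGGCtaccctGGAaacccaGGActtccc
COL27A1: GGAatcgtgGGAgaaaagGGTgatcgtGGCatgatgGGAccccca
The stretches lie at chr13:111132593-111132637 (plus strand, 1 exon), chr13:110864921-110864965 (minus strand, 1 exon) and chr9:117012931-117014899 (plus strand, joined over 2 exons) of GRCh37.

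COL4A2 (ENSG00000134871, chr13:110958159-111165556) had, after ITGA3, the highest ratio in siCTRL NT among the 12 members most abundant in total RNA. Its total RNA lay at 728, 721 and 745 CPM in siCTRL NT, 717, 696 and 712 CPM in siCTRL HU, 674, 729 and 693 CPM in siLSM14A NT and 719, 823 and 683 CPM in siLSM14A HU. Its polysomal RNA lay at 2794, 1780.1 and 1648 CPM in siCTRL NT, 2135, 2095 and 2977 CPM in siCTRL HU, 1461, 1366 and 2056 CPM in siLSM14A NT and 1859.5, 2818 and 1818 CPM in siLSM14A HU. Every polysomal library was above every total RNA library, and the log2 ratio in siCTRL NT was 1.50 (SE 0.20, adjusted p = 0.000532), 2.83-fold. It was 1.77 in siCTRL HU, 1.24 in siLSM14A NT and 1.54 in siLSM14A HU.

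COL4A1 shifted less. Total RNA of COL4A1 was 347, 357 and 363 CPM in siCTRL NT, 347, 344 and 355 CPM in siCTRL HU, 327, 369 and 328 CPM in siLSM14A NT and 342, 411 and 351 CPM in siLSM14A HU. Polysomal RNA of COL4A1 was 502, 515 and 591 CPM in siCTRL NT, 363, 405 and 889.6 CPM in siCTRL HU, 416, 376 and 515 CPM in siLSM14A NT and 507, 692 and 589 CPM in siLSM14A HU. In 3 polysomal libraries (363 and 405 CPM in siCTRL HU, 376 CPM in siLSM14A NT) it lay within the range of the 12 total RNA libraries, and replicate 3 of siCTRL HU stood highest. The log2 ratio was 0.59 (SE 0.10, adjusted p = 0.0015) in siCTRL NT, 0.68 (SE 0.28, adjusted p = 0.0459) in siCTRL HU, 0.38 (SE 0.14, adjusted p = 0.0372) in siLSM14A NT and 0.69 (SE 0.13, adjusted p = 0.00149) in siLSM14A HU. Without replicate 1 (0.90) or replicate 3 (0.17) of siCTRL HU the ratio there no longer passed, nor did it in DESeq2 (0.71), and when replicate numbers entered the fit as a block the call in siLSM14A NT was lost (adjusted p = 0.0565). That call was also lost without replicate 1 (0.36) or replicate 3 (0.20) of siLSM14A NT, and with all libraries in 1 fit (0.35).

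COL4A1 and COL4A2 lie head to head on chromosome 13 and share the DNA between them. The stretch between the 5′ ends of their canonical transcripts (chr13:110959505-110959630, GRCh37, read on the plus strand) is shown with its CCAAT box in capitals.
COL4A1-COL4A2: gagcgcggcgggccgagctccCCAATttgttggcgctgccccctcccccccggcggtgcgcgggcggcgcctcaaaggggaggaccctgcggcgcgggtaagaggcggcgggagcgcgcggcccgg
CCAAT on either strand was found in 7406 of 35116 RefSeq promoter windows (GRCh38.p14) of the same 126 bases before the start (21.1%). From this shared start region, COL4A2 total RNA per kb was 1.98 to 2.14 times that of COL4A1 in the 12 cultures, while its polysomal RNA was 2.83 to 5.98 times that of COL4A1. The log2 ratio of COL4A2 exceeded that of COL4A1 in 12 of 12 cultures, by 0.44 to 1.51 (median 0.84).

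Among the fibrillar collagens, which form the banded fibrils of connective tissue, COL5A3 (an alpha3 chain of collagen V) and COL27A1 lay at opposite ends. COL5A3 total RNA was 17.6, 16.1 and 16.4 CPM in siCTRL NT, 18.1, 16.6 and 17.6 CPM in siCTRL HU, 13.5, 16.03 and 14.96 CPM in siLSM14A NT and 17.9, 16.6 and 14.6 CPM in siLSM14A HU. Its polysomal RNA was 76.8, 51.04 and 45.4 CPM in siCTRL NT, 67.02, 67.98 and 74.6 CPM in siCTRL HU, 40.8, 39.7 and 52.8 CPM in siLSM14A NT and 53.2, 75.3 and 38.6 CPM in siLSM14A HU, with no overlap between the fractions. The log2 ratio was 1.79 (SE 0.20, adjusted p = 0.000349) in siCTRL NT and 2.02, 1.61 and 1.76 in the other conditions.

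COL27A1 (chr9:116917817-117074791), expressed mainly in cartilage in the body, went the other way. Its total RNA was 9.596, 9.35 and 9.49 CPM in siCTRL NT, 10.5, 11.2 and 10.7 CPM in siCTRL HU, 9.16, 9.58 and 9.36 CPM in siLSM14A NT and 9.05, 9.99 and 8.11 CPM in siLSM14A HU. Its polysomal RNA was 4.895, 4.104 and 4.47 CPM in siCTRL NT, 4.42, 3.65 and 7.81 CPM in siCTRL HU, 3.59, 4.04 and 3.95 CPM in siLSM14A NT and 4.903, 4.32 and 4.68 CPM in siLSM14A HU, below every total RNA library. The log2 ratio was -1.08 (SE 0.14, adjusted p = 0.000511) in siCTRL NT, -1.02 in siCTRL HU, -1.26 in siLSM14A NT and -0.96 in siLSM14A HU.

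COL1A1, the alpha1 chain of type I collagen, was scarce in both fractions. Its total RNA was 1.07, 1.297 and 1.56 CPM in siCTRL NT, 1.04, 0.957 and 1.28 CPM in siCTRL HU, 1.59, 1.45 and 1.04 CPM in siLSM14A NT and 1.15, 1.31 and 1.47 CPM in siLSM14A HU. Its polysomal RNA was 2.69, 2.98 and 2.07 CPM in siCTRL NT, 1.79, 3.85 and 4.29 CPM in siCTRL HU, 1.43, 2.49 and 3.17 CPM in siLSM14A NT and 3.24, 3.92 and 2.73 CPM in siLSM14A HU. The fractions overlapped in siLSM14A NT alone, where the call (0.83 (SE 0.32, adjusted p = 0.0482)) was lost with the replicate block (adjusted p = 0.0721). In siCTRL NT the log2 ratio was 0.97 (SE 0.23, adjusted p = 0.00635). Without replicate 2 of siCTRL NT (0.84), or replicate 2 (0.86) or 3 (0.36) of siLSM14A NT, the call in that condition was lost.

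Fibril-associated collagens (FACIT) coat the surface of other fibrils. COL9A3 total RNA was 338, 350.3 and 345 CPM in siCTRL NT, 365, 335 and 322 CPM in siCTRL HU, 341, 329 and 332 CPM in siLSM14A NT and 350.2, 355 and 317 CPM in siLSM14A HU. COL9A3 polysomal RNA was 571, 414 and 450.01 CPM in siCTRL NT, 491, 571 and 613 CPM in siCTRL HU, 377, 506 and 526 CPM in siLSM14A NT and 496, 588 and 463 CPM in siLSM14A HU. All 12 polysomal libraries lay above the total RNA library of the same culture, by 0.14 to 0.93 on the log2 scale, and the fitted ratio in siCTRL NT was 0.47 (SE 0.13, adjusted p = 0.0126). That call was lost without replicate 1 (0.31), and the one in siLSM14A NT without replicate 2 (0.46) or replicate 3 (0.41). COL21A1, another of this group, was listed at 0.151 to 0.634 CPM in total RNA and 0.0572 to 0.505 CPM in polysomal RNA. Its log2 ratio of -1.42 (SE 0.41, adjusted p = 0.0148) in siCTRL NT did not pass in the other conditions, and without replicate 1 (-1.48) or replicate 2 (-1.44) it did not pass there either. In siCTRL HU it passed when replicate 3 was left out (-2.10).

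The remaining collagens include the microfibril chains of collagen VI and the basement membrane collagen XVIII, whose end fragment is endostatin. COL18A1 total RNA was 229, 200.2 and 216 CPM in siCTRL NT, 229, 189.97 and 209 CPM in siCTRL HU, 207, 204 and 205 CPM in siLSM14A NT and 238, 216 and 210.3 CPM in siLSM14A HU. Its polysomal RNA was 611, 456 and 473 CPM in siCTRL NT, 662, 757 and 703 CPM in siCTRL HU, 443, 481 and 579.97 CPM in siLSM14A NT and 579, 856 and 423 CPM in siLSM14A HU. The fractions did not overlap in any condition, and the log2 ratio was 1.25 (SE 0.13, adjusted p = 0.000326) in siCTRL NT and 1.77 in siCTRL HU.

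COL6A1 and COL6A2, partners in collagen VI whose genes are neighbours on chromosome 21, were unequal in level and alike in ratio. COL6A1 lay at 83.4, 67.2 and 75.2 CPM in siCTRL NT, 85.1, 64.04 and 72.2 CPM in siCTRL HU, 69.6, 69.5 and 74.3 CPM in siLSM14A NT and 80.4, 71.3 and 68.3 CPM in siLSM14A HU in total RNA. Polysomal RNA of COL6A1 lay at 216, 139.7 and 132 CPM in siCTRL NT, 235, 191 and 199 CPM in siCTRL HU, 134, 122 and 159 CPM in siLSM14A NT and 193, 226 and 133 CPM in siLSM14A HU, above every total RNA library. COL6A2 lay at 4.23, 3.69 and 4.77 CPM in siCTRL NT, 5.18, 3.695 and 4.08 CPM in siCTRL HU, 4.95, 4.55 and 4.17 CPM in siLSM14A NT and 4.91, 4.34 and 4.22 CPM in siLSM14A HU in total RNA. Polysomal RNA of COL6A2 lay at 9.87, 9.999 and 8.28 CPM in siCTRL NT, 12.3, 14.4 and 13.8 CPM in siCTRL HU, 9.696, 10.8 and 12.3 CPM in siLSM14A NT and 12.5, 16.2 and 8.85 CPM in siLSM14A HU, and its fractions did not overlap either. Per kb, COL6A1 was 11.5 to 16.2 times COL6A2 in total RNA and 9.26 to 17.9 times in polysomal RNA. The ratio of COL6A1 minus that of COL6A2 ran from -0.46 to 0.22 over the 12 cultures and was above 0 in 3 of them.

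Of the 12 laminins, all tested, 8, 7, 8 and 8 were called higher in polysomal RNA in siCTRL NT, siCTRL HU, siLSM14A NT and siLSM14A HU, with medians of 0.78, 0.73, 0.77 and 0.86. These shares of 58.3% to 66.7% stand beside 31.4%, 36.2%, 32.1% and 32.8% of all genes, and 0 laminins were lower. LAMB2 (ENSG00000172037, chr3:49158547-49170551), the beta2 chain of basement membranes at synapses, kidney and vessels, had the highest ratio of all members tested in every condition. Its first 96 coding bases (chr3:49170077-49170300, minus strand, joined over 2 exons, start codon in capitals) are shown for comparison with those of 2 integrin chains given further on.
LAMB2: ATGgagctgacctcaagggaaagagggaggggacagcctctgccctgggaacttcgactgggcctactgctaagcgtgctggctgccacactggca
LAMB2 total RNA was 109, 104 and 107 CPM in siCTRL NT, 108, 97.6 and 102 CPM in siCTRL HU, 90.4, 100.01 and 94.8 CPM in siLSM14A NT and 106, 110.4 and 93.5 CPM in siLSM14A HU. LAMB2 polysomal RNA was 664, 625 and 411 CPM in siCTRL NT, 574, 704 and 637 CPM in siCTRL HU, 463, 503 and 571 CPM in siLSM14A NT and 507, 796 and 449 CPM in siLSM14A HU. The lowest polysomal library was more than 3 times the highest total RNA library, and the log2 ratio in siCTRL NT was 2.41 (SE 0.18, adjusted p = 0.000143), 5.31-fold.

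LAMB1, the beta1 chain found in most basement membranes, was more abundant and shifted less. Total RNA of LAMB1 was 729.7, 595 and 650.1 CPM in siCTRL NT, 681, 581 and 636 CPM in siCTRL HU, 566, 619 and 724 CPM in siLSM14A NT and 693, 671 and 619 CPM in siLSM14A HU. Polysomal RNA of LAMB1 was 875, 1154 and 1295 CPM in siCTRL NT, 611, 598 and 1462 CPM in siCTRL HU, 1179, 745 and 866 CPM in siLSM14A NT and 1067, 1114 and 1354 CPM in siLSM14A HU. In siCTRL HU, replicates 1 and 2 lay near their total RNA and replicate 3 well above it, and the log2 ratio of 0.50 (SE 0.29, adjusted p = 0.14) did not pass there, although it did after removal of the GC trend described further on (1.02). It was 0.75 (SE 0.16, adjusted p = 0.00365) in siCTRL NT, 0.57 in siLSM14A NT and 0.83 in siLSM14A HU. The call was lost in siCTRL NT without replicate 2 (0.65) and in siLSM14A NT without replicate 1 (0.27) or replicate 3 (0.71). LAMB2 exceeded LAMB1 in ratio in 12 of 12 cultures, by 0.94 to 2.81 (median 1.85). LAMB2 had the highest ratio of all members, with its lowest culture at 1.94 and the highest of LAMB1 at 1.20. The difference therefore restates that rank.

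LAMC1, the gamma1 chain that pairs with both beta chains, lay at 1146, 936 and 1063 CPM in siCTRL NT, 1052, 939.9 and 1031 CPM in siCTRL HU, 925, 975 and 1145 CPM in siLSM14A NT and 1097, 1044 and 1009.9 CPM in siLSM14A HU in total RNA. In polysomal RNA it lay at 1804, 1728 and 1987 CPM in siCTRL NT, 1423, 1504 and 2309 CPM in siCTRL HU, 2114, 1423 and 1742 CPM in siLSM14A NT and 1949, 1895 and 1974 CPM in siLSM14A HU. All 12 polysomal libraries were above all total RNA libraries, and the log2 ratio was 0.81, 0.80, 0.82 and 0.88 in the 4 conditions. Per kb, LAMB1 was 0.858 to 0.908 times LAMC1 in total RNA, and the ratio of LAMB1 minus that of LAMC1 ran from -0.64 to 0.16.

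The alpha chains determine which receptors a laminin binds. LAMA4, of vessel and adipose laminins, lay at 308, 240.1 and 285 CPM in siCTRL NT, 288, 238 and 273 CPM in siCTRL HU, 232, 251 and 316 CPM in siLSM14A NT and 287, 268 and 249 CPM in siLSM14A HU in total RNA. Polysomal RNA of LAMA4 lay at 431, 383 and 501 CPM in siCTRL NT, 336, 368 and 545 CPM in siCTRL HU, 552, 351 and 396 CPM in siLSM14A NT and 477, 373 and 482 CPM in siLSM14A HU. LAMA1, the embryonic alpha chain, lay at 451, 300.5 and 344 CPM in siCTRL NT, 409, 308 and 321 CPM in siCTRL HU, 281, 322 and 436 CPM in siLSM14A NT and 434, 365 and 317 CPM in siLSM14A HU in total RNA. Polysomal RNA of LAMA1 lay at 855, 645 and 707 CPM in siCTRL NT, 596, 624 and 725 CPM in siCTRL HU, 886, 647 and 647 CPM in siLSM14A NT and 718, 632 and 737 CPM in siLSM14A HU. The fractions did not overlap for either gene, and the log2 ratio in siCTRL NT was 0.65 (SE 0.14, adjusted p = 0.0035) for LAMA4 and 1.01 (SE 0.17, adjusted p = 0.00139) for LAMA1. LAMA5, of most adult epithelia, had polysomal RNA of 402, 262 and 242 CPM in siCTRL NT, 307, 318 and 448 CPM in siCTRL HU, 236, 292 and 322 CPM in siLSM14A NT and 297, 401 and 306 CPM in siLSM14A HU and was higher in all 4 conditions (1.50, 1.82, 1.58 and 1.65). LAMA2, LAMA3 and LAMB4 passed in no condition, with siCTRL NT ratios of -0.019, -0.064 and 0.56.

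Integrins were called in both directions. In siCTRL NT 10 of 21 tested were higher in polysomal RNA and 5 lower; the counts were 10 and 7 in siCTRL HU, 8 and 7 in siLSM14A NT and 10 and 7 in siLSM14A HU. The shares were 47.6% and 23.8%, 47.6% and 33.3%, 38.1% and 33.3%, and 47.6% and 33.3%, against 31.4% and 32.3%, 36.2% and 37.4%, 32.1% and 32.3%, and 32.8% and 34.1% of all genes. In siLSM14A NT both integrin shares were thus close to those of all genes. Their medians were 0.37, 0.75, 0.23 and 0.35, and with library sizes alone that of siLSM14A NT turned to -0.12. The alpha subunits included both ends: ITGA7, a laminin receptor of muscle, ITGA3, a laminin receptor of epithelia and melanocytic cells, and ITGA5, the fibronectin receptor subunit, were higher, and ITGA4, which binds VCAM1 and fibronectin, and ITGAV, which binds vitronectin, were lower. The first 96 coding bases, which encode the signal sequence, are shown for ITGA3 and for ITGB1, its beta partner, with the start codon in capitals.
ITGA3: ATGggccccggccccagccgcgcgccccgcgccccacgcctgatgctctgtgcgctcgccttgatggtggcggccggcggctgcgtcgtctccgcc
ITGB1: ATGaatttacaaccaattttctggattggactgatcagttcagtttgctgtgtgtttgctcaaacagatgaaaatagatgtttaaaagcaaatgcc
They lie at chr17:48133804-48133899 (plus strand) and at chr10:33221500-33224486 (minus strand, joined over 2 exons), and 79.2% of the bases of ITGA3 and 34.4% of those of ITGB1 are G or C. For the LAMB2 stretch above it is 61.5%.

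ITGA3 total RNA was 251, 235 and 236 CPM in siCTRL NT, 256, 228 and 251 CPM in siCTRL HU, 238, 252 and 243 CPM in siLSM14A NT and 261, 277 and 250.3 CPM in siLSM14A HU. Polysomal RNA of ITGA3 was 849, 707 and 584 CPM in siCTRL NT, 950.5, 1053 and 865 CPM in siCTRL HU, 619, 669 and 752 CPM in siLSM14A NT and 805, 1192 and 553 CPM in siLSM14A HU. The fractions did not overlap, and the log2 ratio was 1.56 (SE 0.14, adjusted p = 0.000242) in siCTRL NT, 1.98 in siCTRL HU, 1.50 in siLSM14A NT and 1.69 in siLSM14A HU.

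ITGB1 (chr10:33176201-33294720) was the reverse. Total RNA was 701, 634 and 709 CPM in siCTRL NT, 627, 657 and 728 CPM in siCTRL HU, 633, 687 and 705 CPM in siLSM14A NT and 608, 678 and 694 CPM in siLSM14A HU. Polysomal RNA was 303, 459.7 and 585 CPM in siCTRL NT, 269, 218 and 437 CPM in siCTRL HU, 449, 225 and 349 CPM in siLSM14A NT and 353, 366 and 478 CPM in siLSM14A HU. Every polysomal library was below the lowest total RNA library, although the polysomal values spread from 218 to 585 CPM, and the log2 ratio was -0.60 (SE 0.21, adjusted p = 0.0329) in siCTRL NT, -1.11 in siCTRL HU, -0.96 in siLSM14A NT and -0.73 in siLSM14A HU. The call was lost in siCTRL NT without replicate 1 (-0.36) or replicate 2 (-0.67) and in siLSM14A NT without replicate 3 (-0.96). The ratio of ITGA3 exceeded that of ITGB1 in 12 of 12 cultures by 1.59 to 3.80 (median 2.59), and that of ITGA5 did so in 12 of 12 by 0.93 to 3.03. ITGA3 and ITGA5 were called higher and ITGB1 lower in every condition, so these differences restate those calls.

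ITGAV and ITGA4 went with ITGB1. ITGAV lay at 161, 138 and 156 CPM in siCTRL NT, 133, 145 and 162 CPM in siCTRL HU, 127, 142 and 152 CPM in siLSM14A NT and 131, 142 and 145 CPM in siLSM14A HU in total RNA. Polysomal RNA of ITGAV lay at 42.7, 75.3 and 127 CPM in siCTRL NT, 55.7, 44.04 and 84.7 CPM in siCTRL HU, 84.2, 37.9 and 46.96 CPM in siLSM14A NT and 66.98, 83.1 and 68.8 CPM in siLSM14A HU, where replicate 3 of siCTRL NT was the highest. All other polysomal libraries of ITGAV lay below every total RNA library. ITGA4 lay at 75.6, 58.9 and 73.1 CPM in siCTRL NT, 62.8, 56.7 and 73.01 CPM in siCTRL HU, 65.01, 68.2 and 74.5 CPM in siLSM14A NT and 60.998, 61.3 and 70.01 CPM in siLSM14A HU in total RNA. Polysomal RNA of ITGA4 lay at 20.8, 30.3 and 45.4 CPM in siCTRL NT, 22.4, 10.8 and 33.7 CPM in siCTRL HU, 36.1, 11.9 and 20.5 CPM in siLSM14A NT and 29.5, 28.7 and 35.99 CPM in siLSM14A HU. Both genes had lower polysomal than total RNA in all 12 cultures, with log2 ratios from -1.91 to -0.30 for ITGAV and from -2.52 to -0.69 for ITGA4. The fitted ratios in siCTRL NT were -0.90 (SE 0.32, adjusted p = 0.0373) and -1.11 (SE 0.26, adjusted p = 0.00552). That of ITGAV did not pass without replicate 1 (-0.55) or replicate 2 (-0.91) of siCTRL NT, and that of ITGA4 without replicate 2 (-1.17). Without replicate 3 of siLSM14A NT neither passed in that condition (-1.12 and -1.45). ITGAE, which binds E-cadherin, was lower in all 4 conditions (-0.72, -0.49, -0.49 and -0.71). It no longer passed without replicate 3 in siCTRL HU (-0.32) or in siLSM14A NT (-0.41).

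ITGB8, a partner of ITGAV that activates latent TGF-beta, had the lowest ratio of all members tested in every condition. Total RNA of ITGB8 (chr7:20370325-20455377) was 124, 128 and 113 CPM in siCTRL NT, 126, 125 and 121 CPM in siCTRL HU, 133, 168 and 156 CPM in siLSM14A NT and 139, 154 and 135 CPM in siLSM14A HU. Its polysomal RNA was 21.4, 36.1 and 59.7 CPM in siCTRL NT, 38.9, 24.4 and 44.4 CPM in siCTRL HU, 69.8, 39.5 and 26.2 CPM in siLSM14A NT and 61.1, 35.04 and 56.3 CPM in siLSM14A HU. The groups did not overlap, and the log2 ratio was -1.64 (SE 0.31, adjusted p = 0.00225) in siCTRL NT, -1.78 in siCTRL HU, -1.73 in siLSM14A NT and -1.49 in siLSM14A HU. Without replicate 2 of siCTRL NT (-1.55) the call of ITGB8 there was lost. ITGB5, another partner of ITGAV, lay at 327, 348 and 357 CPM in siCTRL NT, 331, 333 and 342 CPM in siCTRL HU, 334, 338 and 297 CPM in siLSM14A NT and 340.3, 370.1 and 340.3 CPM in siLSM14A HU in total RNA. Polysomal RNA of ITGB5 lay at 614, 600.2 and 484 CPM in siCTRL NT, 571, 568 and 537 CPM in siCTRL HU, 397, 535 and 549 CPM in siLSM14A NT and 457, 642 and 438 CPM in siLSM14A HU, and it was higher in all 4 conditions. Without replicate 3 of siLSM14A NT (0.48) or replicate 1 of siLSM14A HU (0.60) it did not pass in that condition. Its ratio exceeded that of ITGAV in 12 of 12 cultures, by 0.74 to 2.82. For COL4A2 with COL4A1, LAMB2 with LAMB1, ITGA3 and ITGA5 with ITGB1, and ITGB5 with ITGAV, the level per kb of the first relative to the second was higher in every polysomal library than in any total RNA library, whichever libraries are paired. For ITGB5 and ITGAV it was 6.05 to 22.8 against 3.10 to 4.17, and for ITGA3 and ITGB1 0.762 to 3.68 against 0.254 to 0.328. These integrin pairs join a member called higher in all 4 conditions with one called lower in all 4, so their separation restates those calls. The separation of LAMB2 from LAMB1 is no separate result either, because LAMB2 had the highest ratio of all members tested in every condition. ITGA4 relative to ITGB1 separated downward, at 0.0271 to 0.0461 in polysomal RNA against 0.0475 to 0.0594 in total RNA. The ratio of ITGA4 was above that of ITGB1 in 0 of 12 cultures (differences from -0.91 to -0.20). Both genes were called lower in all 4 conditions. For COL6A1 with COL6A2, LAMB1 with LAMC1 and ITGAV with ITGB1 the ranges overlapped. How many gene pairs beyond these separate was not tested.

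ITGA7 and ITGB4, both parts of laminin receptors, stood near LAMB2 at the top. ITGA7 lay at 25.96, 19.999 and 17.6 CPM in siCTRL NT, 25.4, 16.5 and 16.3 CPM in siCTRL HU, 15.8, 20.1 and 25.7 CPM in siLSM14A NT and 26.5, 21.5 and 15.9 CPM in siLSM14A HU in total RNA. Polysomal RNA of ITGA7 lay at 92.4, 67.8 and 58.4 CPM in siCTRL NT, 99.8, 106 and 69.9 CPM in siCTRL HU, 79.4, 64.6 and 63.4 CPM in siLSM14A NT and 94.9, 113 and 44.98 CPM in siLSM14A HU. The levels in the polysomal libraries of ITGA7 were thus all above those in total RNA. ITGB4, the partner of ITGA6, lay at 14.1, 18.2 and 18.6 CPM in siCTRL NT, 14.4, 13.2 and 17.5 CPM in siCTRL HU, 20.8, 19.1 and 14.5 CPM in siLSM14A NT and 17.9, 21.2 and 20.7 CPM in siLSM14A HU in total RNA. Polysomal RNA of ITGB4 lay at 55.9, 61.7 and 44.9 CPM in siCTRL NT, 52.1, 76.8 and 74.2 CPM in siCTRL HU, 44.8, 63.6 and 76.8 CPM in siLSM14A NT and 62.3, 105 and 58.9 CPM in siLSM14A HU. In neither gene did the fractions overlap, with siCTRL NT log2 ratios of 1.78 (SE 0.21, adjusted p = 0.000391) and 1.67 (SE 0.17, adjusted p = 0.000276). ITGA6 itself lay at 405, 349 and 386 CPM in siCTRL NT, 365, 349 and 417 CPM in siCTRL HU, 329, 345 and 385 CPM in siLSM14A NT and 339, 343 and 359.5 CPM in siLSM14A HU in total RNA. Polysomal RNA of ITGA6 lay at 228, 275 and 361 CPM in siCTRL NT, 252, 209 and 279 CPM in siCTRL HU, 321, 181 and 233 CPM in siLSM14A NT and 269, 244 and 293 CPM in siLSM14A HU. Its log2 ratio of -0.40 (SE 0.16, adjusted p = 0.0583) in siCTRL NT did not pass, although it did with the replicate block (adjusted p = 0.0349), and it was called lower in the other 3 conditions (-0.60, -0.50 and -0.37). Single libraries decided these calls of ITGA6: siCTRL NT passed without replicate 3 (-0.57), and the call was lost in siLSM14A NT without replicate 2 (-0.33) or 3 (-0.41) and in siLSM14A HU without replicate 1 (-0.39).

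**Figure D3:**
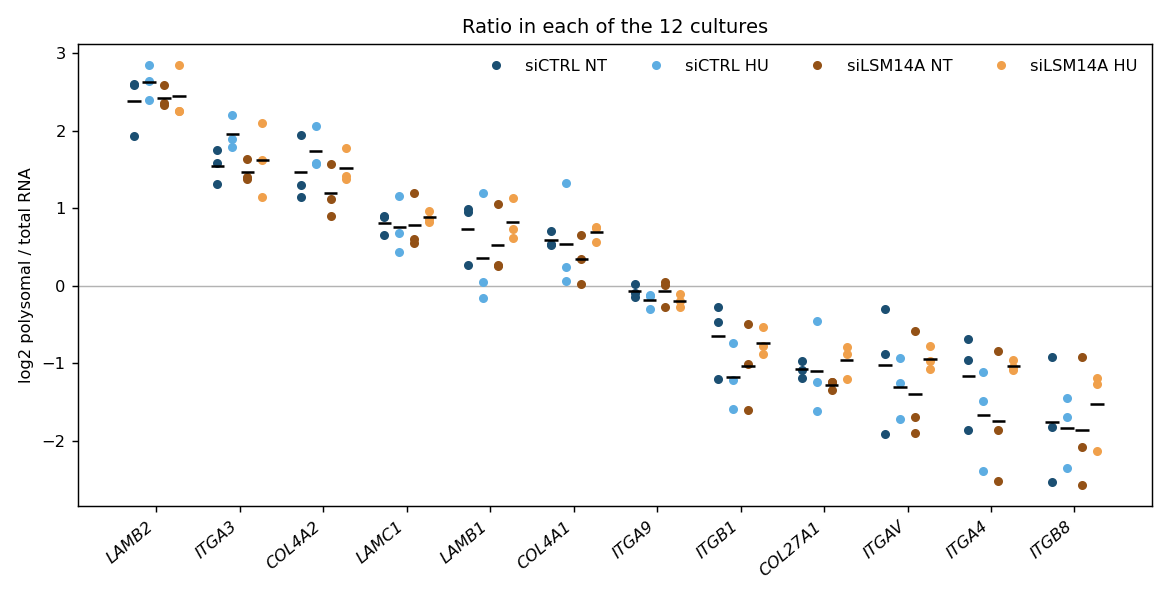
Log2 ratio of polysomal to total RNA in each of the 12 cultures for 12 members, with 3 points per condition (colours) and the mean as a black bar. LAMB2 lies between 1.94 and 2.85 and ITGB8 between -2.58 and -0.92, while COL4A1 ranges from 0.03 to 1.32 within the same cultures.

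Cultures of a condition differed in the ratio. The median over members was 0.74, 0.62 and 0.52 in the siCTRL NT replicates, 0.29, 0.52 and 0.90 in those of siCTRL HU, 0.35, 0.27 and 0.64 in those of siLSM14A NT, and 0.58, 0.73 and 0.67 in those of siLSM14A HU. The ranges of the 4 conditions overlapped. COL4A1 followed this spread, with log2 ratios of 0.062, 0.24 and 1.32 in siCTRL HU, and LAMB1 had -0.16, 0.042 and 1.20.

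The ratio went with the base composition of the mRNA. Over all genes tested, Spearman's rho between the log2 ratio and the GC content of the exons was 0.66 in siCTRL NT, 0.71 in siCTRL HU, 0.65 in siLSM14A NT and 0.64 in siLSM14A HU, and over the members it was 0.59, 0.70, 0.65 and 0.60. For the 21 integrins rho was 0.80, 0.81, 0.84 and 0.81, and for the 42 or 43 collagens and laminins 0.48, 0.61, 0.54 and 0.48. These genes share libraries, so the values are descriptions. In siCTRL NT the genes with 40 to 44% GC had a median log2 ratio of -0.50 (quartiles -0.94 and -0.08) and those with 56 to 60% a median of 0.60 (0.23 and 0.93). Exon GC was 39.1% in ITGB8, 41.8% in ITGB1, 49.6% in COL4A2, 57.4% in ITGA3, 59.3% in LAMB2 and 58.1% in COL27A1.

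**Figure D4:**
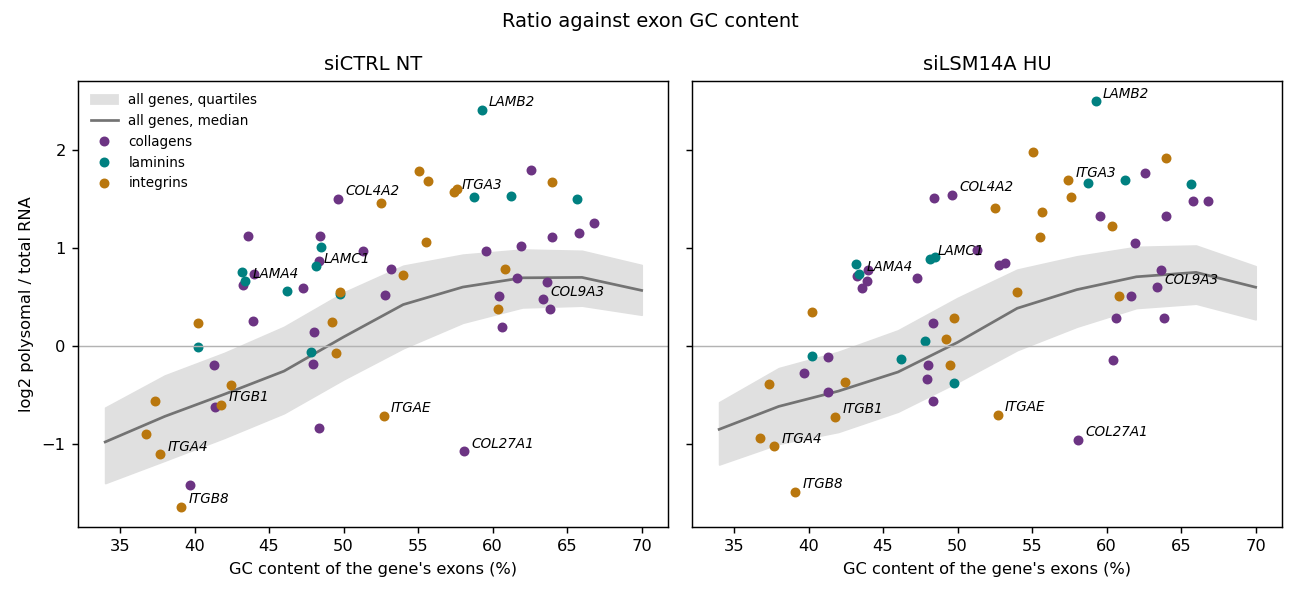
Log2 ratio of polysomal to total RNA against exon GC content (%) in siCTRL NT (left) and siLSM14A HU (right), with members coloured by family, the grey line and band as the median and quartiles of all genes in bins of 4 percentage points. LAMB2 (2.41 in siCTRL NT) lies above the band at its GC content and COL27A1 (-1.08) below it, whereas ITGB1 (-0.60) and COL9A3 (0.47) lie close to it.

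When the GC trend was removed from each library, 31, 30, 26 and 31 members were higher and 4, 6, 8 and 6 lower in siCTRL NT, siCTRL HU, siLSM14A NT and siLSM14A HU, against 30.4%, 31%, 31.1% and 31.1% of all genes higher and 24.5%, 26%, 24.7% and 27% lower. Of the 25 members higher in all conditions, 18 remained so, and 6 others joined them. Of the 7 lower in all conditions, ITGB8, ITGAE and COL27A1 remained. The shares of all genes called in every condition after the correction were not computed. The laminins had medians of 0.89 to 0.96 after the correction, the collagens 0.23 to 0.47 and the integrins 0.16 to 0.28. LAMB2 kept 1.80 in siCTRL NT, COL4A2 1.45, and ITGA3 1.02. ITGB1 went to -0.10, ITGAV to -0.11 and COL9A3 to -0.18, while COL27A1 fell further to -1.64. Of the called members, 2, 5, 2 and 4 changed sign in the 4 conditions. COL9A3 did so in all of them, ITGA1 in each of the 3 where it was called, COL19A1 in siCTRL HU and siLSM14A HU, COL9A2 in siCTRL NT and siCTRL HU, COL16A1 in siCTRL HU and ITGA6 in siLSM14A HU.

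Length did not order the ratios in the same way. The median coding length was 3579 bases over the tested members and 1422 over all genes tested in siCTRL NT. Spearman's rho between the ratio and coding length was 0.19, 0.11, 0.17 and 0.13 over the members. Of the 1823 genes tested in siCTRL NT with a coding length of 3000 bases or more, 552 were higher in polysomal RNA and 592 lower, with a median of -0.09. The length of the transcript outside the coding sequence had a rho of -0.36, -0.40, -0.42 and -0.42 over the members and of -0.43 to -0.39 over all genes. ITGB8 had 6667 such bases and LAMB2 298.

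Neighbouring steps of matrix biology were described by lists chosen by function. Matrix glycoproteins other than the members were higher in polysomal RNA for 19 of 23 tested in siCTRL NT and lower for 0, with a median of 0.79 (THBS2, a thrombospondin, 1.25; LTBP1, a TGF-beta binding protein, 1.13; AGRN, agrin, 1.34; TNC, tenascin C, 1.37). Enzymes and chaperones of collagen biosynthesis were higher for 17 of 24 and lower for 3, with a median of 1.01 (LOXL2, a lysyl oxidase, 1.60; P4HA2, a prolyl hydroxylase subunit, 1.51; P3H1 1.25; LOXL3 1.41), and the lowest was LOX, lysyl oxidase, at -1.72. Adaptors of integrin adhesion were higher for 14 of 21 and lower for 5, with a median of 0.66 (TLN1, talin, 2.18; ILK 1.33; PARVB 0.91; ACTN1 0.65), and the lowest was KRIT1 at -1.44. Talin and the other adaptors are cytosolic proteins. Long membrane receptors were higher for 13 of 23 and lower for 3, with a median of 0.54 (PLXNB2 1.32, IGF2R 1.46, PLXNB1 1.00, PTPRJ -0.94), and long cytosolic and nuclear proteins were higher for 15 of 21 and lower for 4, with a median of 0.96 (FASN 1.99, MTOR 1.01, CLTC 1.41, UBR4 1.24), and the lowest was DST, dystonin, at -1.17. The genes in parentheses are the 4 with the smallest p in each list, and the counts stand beside 31.4% of all genes higher and 32.3% lower in siCTRL NT. In the other 3 conditions the higher calls were 16 to 20 of 23 or 24 for matrix glycoproteins, 16 or 17 of 23 for collagen biosynthesis and 14 of 21 for integrin adhesion. They were 11 to 14 of 23 for long membrane receptors and 14 of 21 for long cytosolic and nuclear proteins. Lower calls were 0 or 1, 2 or 3, 4 or 6, 3 or 4 and 1 to 5 in the same order. Of all genes, 36.2%, 32.1% and 32.8% were higher and 37.4%, 32.3% and 34.1% lower in siCTRL HU, siLSM14A NT and siLSM14A HU. Between conditions 2 genes of these lists were called, both in total RNA of siLSM14A HU against siCTRL HU: FKBP14, a prolyl isomerase of collagen folding, fell by 0.30 on the log2 scale (adjusted p = 0.0433) and TNS3, a tensin, rose by 0.32 (adjusted p = 0.00757). They were 1 of 23 tested for collagen biosynthesis and 1 of 21 for integrin adhesion, where 0.802% of all genes were called.

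LSM14A knockdown changed few members in total RNA. In untreated cells 1 of 64 tested members passed, against 0.566% of all genes tested, and 9 members had an unadjusted p under 0.05, against 10.8% of all genes. The member was ITGA9 (ENSG00000144668, chr3:37493606-37864998), an alpha subunit that binds tenascin and osteopontin. ITGA9 total RNA was 26.2, 26.98 and 28.3 CPM in siCTRL NT, 23.9, 25.6 and 25.5 CPM in siCTRL HU, 18.4, 21.3 and 18.3 CPM in siLSM14A NT and 17.9, 21.5 and 20.3 CPM in siLSM14A HU. Its siLSM14A NT libraries all lay below those of siCTRL NT, and the log2 change was -0.49 (SE 0.076, unadjusted p of 5.86e-05, adjusted p = 0.0171). The call was lost when siCTRL NT replicate 2, siCTRL NT replicate 3 or siLSM14A NT replicate 1 was left out (adjusted p = 0.0741, 0.153 and 0.0935). Polysomal RNA of ITGA9 was 23.7, 27.3 and 26.6 CPM in siCTRL NT, 21.8, 20.8 and 23.6 CPM in siCTRL HU, 18.5, 17.6 and 18.9 CPM in siLSM14A NT and 15.6, 19.9 and 16.7 CPM in siLSM14A HU, also without overlap, and its ratio hardly left 0 (-0.073 in siCTRL NT, -0.053 in siLSM14A NT). DESeq2 called 3 members here (1.59% of all genes), ITGA9, ITGB3 and ITGB8.

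With HU, 0 of 63 members passed between siLSM14A and siCTRL total RNA in edgeR (0.802% of all genes), and 7 had an unadjusted p under 0.05 (8.54% of all genes). Same-numbered replicates of these groups varied together, and a block for that number let 7 members pass (6.85% of all genes): ITGB3 at 0.28, ITGB4 at 0.40, ITGB8 at 0.19, COL19A1 at 0.18, ITGA9 at -0.34, ITGA1 at -0.22 and COL27A1 at -0.27. DESeq2 without the block called 3 (1.52% of all genes), ITGA9, ITGB3 and ITGB4. ITGB3 (ENSG00000259207), the beta3 subunit of the vitronectin receptor known for melanoma invasion, lay at 113, 103 and 107 CPM in siCTRL NT, 98.9, 101 and 111 CPM in siCTRL HU, 121, 133 and 128 CPM in siLSM14A NT and 121, 133 and 126 CPM in siLSM14A HU in total RNA. Its siLSM14A libraries were above those of siCTRL both without and with HU, with log2 changes of 0.24 (SE 0.058, unadjusted p of 0.00177, adjusted p = 0.13) and 0.28 (SE 0.062, unadjusted p of 0.000522, adjusted p = 0.0615). ITGB8 total RNA was likewise higher in the siLSM14A libraries without overlap in both comparisons, and ITGB4 with HU alone. Without siCTRL HU replicate 3, ITGB3 (0.34) and ITGB4 (0.53) passed with HU.

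**Figure D5:**
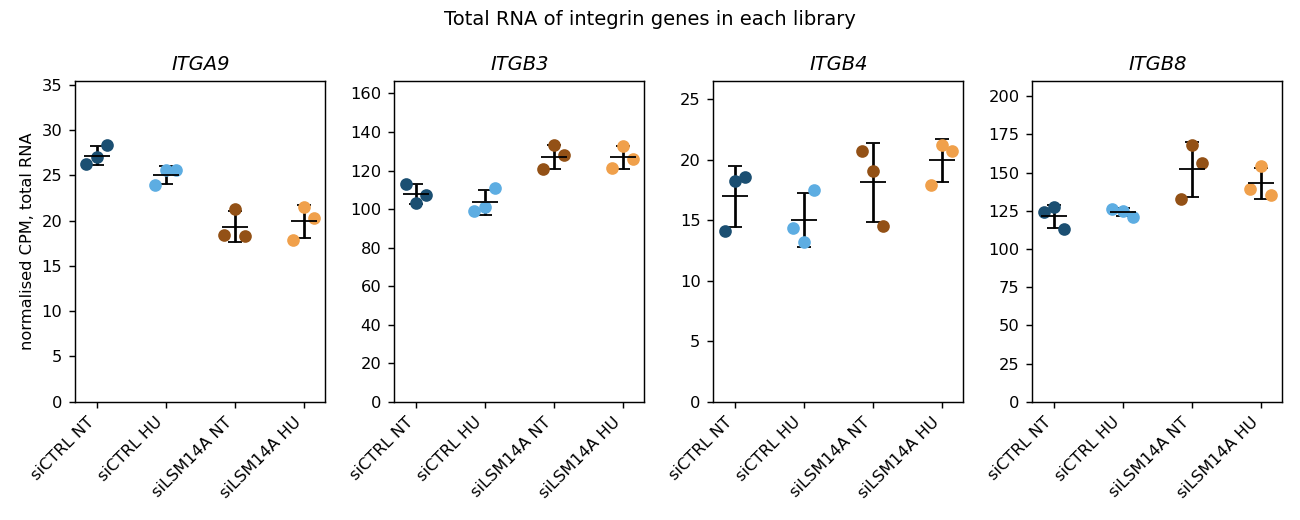
Normalised CPM in total RNA of ITGA9, ITGB3, ITGB4 and ITGB8, with 1 point per library, and the mean and SD of 3 as bars. ITGA9 sits at 26.2 to 28.3 CPM in siCTRL NT and at 18.3 to 21.3 in siLSM14A NT, and ITGB3 at 103 to 113 and 121 to 133.

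In polysomal RNA, knockdown changed 0 of 63 members without HU (0.0162% of all genes at the adjusted and 1.96% at the unadjusted threshold; 3 members at the unadjusted) and 0 of 63 with HU (0.0653% and 4.99%; 0 members). Without siCTRL HU replicate 3 or siLSM14A HU replicate 2, 16 and 13 members had an unadjusted p under 0.05 with HU (14.9% and 17.4% of all genes), and without siLSM14A NT replicate 1 there were 9 in untreated cells (3.93%). The members with the smallest p in each direction without HU were COL6A2 at 0.22 (SE 0.19, unadjusted p of 0.289, adjusted p = 1) and COL4A5, an alpha chain of collagen IV, at -0.65 (SE 0.22, unadjusted p of 0.0126, adjusted p = 1). With HU they were ITGB8 at 0.51 (SE 0.25, unadjusted p of 0.058, adjusted p = 0.739) and ITGA9 at -0.34 (SE 0.16, unadjusted p of 0.0609, adjusted p = 0.739). COL4A5 polysomal RNA was 43.3, 51.96 and 52.5 CPM in siCTRL NT, 29.5, 25.5 and 70.9 CPM in siCTRL HU, 27.9, 24.8 and 41.2 CPM in siLSM14A NT and 33.7, 61.9 and 46.9 CPM in siLSM14A HU, so that its siLSM14A NT libraries were all below those of siCTRL NT and its siCTRL HU libraries spanned both.

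HU changed no member by edgeR, in either fraction. In total RNA of siCTRL cells 1 member had an unadjusted p under 0.05 (0% and 1.44% of all genes at the adjusted and unadjusted thresholds), COL4A5 at -0.19 (SE 0.074, unadjusted p of 0.0228, adjusted p = 1), and the smallest p upward was that of COL27A1 at 0.19 (SE 0.089, unadjusted p of 0.053, adjusted p = 1). In total RNA of siLSM14A cells there was 1 (0% and 5.2%), LAMA5 at 0.14 (SE 0.064, unadjusted p of 0.045, adjusted p = 0.855), with ITGA4 at -0.12 (SE 0.073, unadjusted p of 0.13, adjusted p = 0.855) downward. LAMA5 total RNA was 110.2, 93.1 and 117 CPM in siCTRL NT, 109, 89.7 and 108 CPM in siCTRL HU, 95.97, 94.4 and 97.7 CPM in siLSM14A NT and 109, 113 and 97.3 CPM in siLSM14A HU, so that the siLSM14A groups overlapped. In polysomal RNA 4 members had an unadjusted p under 0.05 in siCTRL cells (0% and 2.1%) and 5 in siLSM14A cells (0% and 0.871%). In siCTRL cells there were 15 without siCTRL HU replicate 3 (7.20% of all genes) and 10 without siCTRL NT replicate 1 (7.47%), and in siLSM14A cells 14 without siLSM14A NT replicate 1 (7.87%) and 0 without siLSM14A NT replicate 2 or siLSM14A HU replicate 2. COL6A2 at 0.52 (SE 0.19, unadjusted p of 0.0171, adjusted p = 0.933) and COL14A1 at -0.62 (SE 0.28, unadjusted p of 0.0435, adjusted p = 0.933) led in siCTRL, and COL4A1 at 0.45 (SE 0.17, unadjusted p of 0.0256, adjusted p = 1) and ITGAE at -0.23 (SE 0.18, unadjusted p of 0.228, adjusted p = 1) in siLSM14A. COL14A1, a fibril-associated collagen, lay at 1.58, 0.773 and 0.884 CPM in siCTRL NT, 1.65, 0.984 and 0.752 CPM in siCTRL HU, 1.14, 0.996 and 1.802 CPM in siLSM14A NT and 1.69, 1.54 and 1.01 CPM in siLSM14A HU in total RNA. Polysomal RNA of COL14A1 lay at 2.64, 2.02 and 2.25 CPM in siCTRL NT, 1.63, 1.22 and 1.67 CPM in siCTRL HU, 3.01, 1.94 and 1.802 CPM in siLSM14A NT and 2.51, 1.36 and 2.43 CPM in siLSM14A HU, where the siCTRL groups did not overlap. ITGAE lay at 25.4, 23.9 and 24.7 CPM in siCTRL NT, 25.6, 26.3 and 26.6 CPM in siCTRL HU, 26.2, 21.6 and 23.9 CPM in siLSM14A NT and 22.9, 22.3 and 24.8 CPM in siLSM14A HU in total RNA. Polysomal RNA of ITGAE lay at 15.6, 15.8 and 13.8 CPM in siCTRL NT, 20.2, 20.99 and 14.4 CPM in siCTRL HU, 16.6, 19.1 and 14.6 CPM in siLSM14A NT and 13.8, 15.9 and 13.3 CPM in siLSM14A HU, where the siLSM14A groups overlapped. DESeq2 also called 0 members in these 6 comparisons.

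Translation efficiency (TE), tested as the change of the ratio between conditions, was called for 0 members in any comparison by edgeR or DESeq2. The unadjusted p was under 0.05 for 0 of 65 members for knockdown without HU (0% and 0.87% of all genes at the adjusted and unadjusted thresholds), 0 of 64 for knockdown with HU (0% and 3.85%), 3 of 64 for HU in siCTRL cells (0% and 2.31%) and 1 of 65 for HU in siLSM14A cells (0% and 1.41%). For the interaction of HU and siRNA it was 0 of 65 (0% and 1.9%). These counts moved with single libraries, while 0 members passed the adjusted threshold in any of these fits. For knockdown with HU, 13 members had an unadjusted p under 0.05 without siCTRL HU replicate 3 (11.9% of all genes), among them LAMB1 at 0.91 (unadjusted p of 0.000204, adjusted p = 0.303), and 8 without siLSM14A HU replicate 2 (12.7%). For HU in siLSM14A cells there were 13 without siLSM14A NT replicate 1 (11.6%) and 5 without replicate 3 (1.64%). Without that replicate 1, ITGA2 at 0.92 (unadjusted p of 0.000215, adjusted p = 0.0635) and ITGAV at 0.85 (unadjusted p of 0.000396, adjusted p = 0.0731) came nearest to passing. For HU in siCTRL cells there were 9 without siCTRL NT replicate 1 (5.67%) and 7 without siCTRL HU replicate 3 (5.96%). For the interaction there were 8 without siCTRL HU replicate 3 (6.21%) and 7 without siLSM14A NT replicate 1 (9.62%). The smallest p for HU in siCTRL cells were those of COL18A1 upward at 0.50 (SE 0.18, unadjusted p of 0.0127, adjusted p = 0.956) and of ITGB1 downward at -0.52 (SE 0.33, unadjusted p of 0.14, adjusted p = 0.956). In siLSM14A cells they were those of COL8A1, a short-chain collagen of vessels and the eye, at 0.59 (SE 0.24, unadjusted p of 0.0265, adjusted p = 1) and LAMA2, the muscle laminin chain, at -0.81 (SE 0.59, unadjusted p of 0.19, adjusted p = 1). For knockdown without HU the smallest p upward was that of LAMA2 at 0.71 (SE 0.48, unadjusted p of 0.166, adjusted p = 1). Downward LAMB4, a laminin beta chain below 1 CPM in every library, lay at -1.62 (SE 0.83, unadjusted p of 0.0723, adjusted p = 1), and without siLSM14A NT replicate 1 at -3.46 (unadjusted p of 0.000601, adjusted p = 0.905). With HU they were ITGA6 at 0.25 (SE 0.17, unadjusted p of 0.16, adjusted p = 0.778) upward and COL2A1 at -0.80 (SE 0.43, unadjusted p of 0.0873, adjusted p = 0.778) downward. The interaction was led by ITGB1 at 0.78 (SE 0.47, unadjusted p of 0.109, adjusted p = 0.896) and ITGAE at -0.41 (SE 0.26, unadjusted p of 0.13, adjusted p = 0.896).

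The genes that led these comparisons differ in depth. COL8A1 lay at 9.38, 7.83 and 9.31 CPM in siCTRL NT, 7.94, 9.04 and 9.78 CPM in siCTRL HU, 11.2, 9.99 and 10.1 CPM in siLSM14A NT and 9.47, 9.92 and 10.2 CPM in siLSM14A HU in total RNA. Polysomal RNA of COL8A1 lay at 9.97, 8.61 and 13.2 CPM in siCTRL NT, 10.4, 9.39 and 16.1 CPM in siCTRL HU, 13.5, 7.62 and 11.7 CPM in siLSM14A NT and 16.1, 16.2 and 14.7 CPM in siLSM14A HU, and its siLSM14A HU polysomal libraries were all above those of siLSM14A NT. LAMA2 lay at 0.859, 0.873 and 1.06 CPM in siCTRL NT, 0.583, 1.06 and 0.684 CPM in siCTRL HU, 0.811, 0.747 and 0.651 CPM in siLSM14A NT and 0.573, 1.02 and 1.14 CPM in siLSM14A HU in total RNA. Polysomal RNA of LAMA2 lay at 0.979, 1.07 and 0.6903 CPM in siCTRL NT, 1.04, 0.481 and 0.509 CPM in siCTRL HU, 1.84, 1.09 and 0.629 CPM in siLSM14A NT and 1.26, 0.7696 and 0.479 CPM in siLSM14A HU. The fractions of LAMA2 overlapped in every condition. COL2A1, of cartilage collagen, lay at 0.394, 0.449 and 0.914 CPM in siCTRL NT, 0.8099, 0.372 and 0.615 CPM in siCTRL HU, 1.08, 0.589 and 0.499 CPM in siLSM14A NT and 0.754, 0.756 and 0.834 CPM in siLSM14A HU in total RNA. Polysomal RNA of COL2A1 lay at 0.853, 0.665 and 1.02 CPM in siCTRL NT, 0.847, 0.929 and 1.05 CPM in siCTRL HU, 0.759, 0.738 and 0.686 CPM in siLSM14A NT and 0.905, 0.476 and 0.718 CPM in siLSM14A HU. LAMA2 and COL2A1 thus stayed below 2 CPM in every library, where counting error limits what could be detected.

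With HU in siLSM14A cells the change of the ratio was above 0 for 51 of 65 members (median change 0.18), where 51% of all genes and 86.8% of genes with a coding length of 3000 bases or more were above 0. For knockdown without HU, 19 of 65 members were above 0 (median change -0.13), against 48.3% of all genes and 32.1% of the long ones. Single libraries moved both: the first fell to 37 of 65 (median 0.10) without siLSM14A HU replicate 2 and to 41 (0.092) without siLSM14A NT replicate 2, and the second ran from 15 to 27 of 65 (medians from -0.22 to -0.051). Both comparisons share the siLSM14A NT libraries, and no single member passed in either. In polysomal RNA alone 50 of 63 members were above 0 with HU in siLSM14A cells (median change 0.24), against 52.3% of all genes and 89% of the long ones. Without siLSM14A HU replicate 2 it was 41 (0.14), and without siLSM14A NT replicate 2 it was 44 (0.15).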

How the data were processed

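Total and polysomal RNA (heavy sucrose gradient fractions) of A2058 cells were sequenced as stranded, poly(A)-selected libraries. The deposited values are the authors' raw counts per Gencode gene, made from trimmed reads mapped on hg19 by STAR 2.6.1a. Gene types, coordinates and canonical transcripts were taken from a Gencode annotation of GRCh37, in which 708 IDs were not found and left out. Samples were grouped by their labels, and every column was used.

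Protein-coding genes entered the quasi-likelihood test of edgeR 4.0.16 under R 4.3.3, with TMM scaling and the low-count filter filterByExpr. Its thresholds were 10 counts for single libraries and 15 over all libraries of a test. Not every library had to reach the 10: COL5A2 was tested in all 4 conditions with 1 count in its lowest library. Benjamini-Hochberg adjustment ran over all genes of each of 17 tests. The ratio compared 3 polysomal with 3 total RNA libraries of a condition, and TE was the interaction of fraction and condition. CPM per kb used the canonical transcript. Ratios per culture were the log2 of polysomal CPM over total CPM without a prior count, left blank where either library had no count. A prior count of 2 entered the GC correction and the correlations between replicates. The fits were checked on simulated counts with a known change, a single fixed dispersion and no GC trend. That check covers the code and not the power or error rate at the noise of these libraries. Alternatives were DESeq2 1.42.0, RLE factors, no filter, all genes, a loess GC correction (span 0.3), the replicate number as a block, the culture as a block, all 24 libraries in 1 fit, each replicate left out, and library sizes alone.

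Depth was 24.8 to 44.9 counts per library (times 10 to the power of 6), so members below 1 CPM rest on few counts. The 24 replicate pairs had a chi-square of 6.16 to 121 per gene, so all exceeded sampling noise. It was 6.16 to 20.4 in total RNA and 37.1 to 121 in polysomal RNA. This larger spread limits every test that uses polysomal libraries, including those with 0 calls. Same-numbered replicates were taken as paired where all 3 correlations of their deviations exceeded 0.1: siLSM14A HU with siCTRL HU in total RNA (0.33, 0.18 and 0.25), siCTRL HU with siCTRL NT in total RNA (0.27, 0.25 and 0.19) and in polysomal RNA (0.25, 0.18 and 0.45), and total with polysomal RNA of siLSM14A HU (0.17, 0.15 and 0.24). Total and polysomal RNA of the other conditions fell short, with -0.31, 0.11 and -0.23 in siLSM14A NT, so values per culture there rest on the shared number alone.

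The members and lists were chosen with earlier results of these data known. Values per library are given for the 12 members most abundant per kb, the members called between conditions, the 3 highest and 3 lowest ratios per condition, the smallest p in each direction of each change, and partner chains. For 1 such member, values are not reported here.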

Additional observations from a re-analysis of the deposited data

Results flagged for a closer look

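COL4A5, an alpha chain of collagen IV, had log2 changes of opposite sign with HU in total RNA of control and knockdown cells. In siCTRL cells it lay at 28.3, 28.6 and 31.7 CPM without HU and at 24.2, 26.2 and 26.96 CPM with HU, a log2 change of -0.19. In siLSM14A cells it lay at 24.98, 24.7 and 24.5 CPM without HU and at 26.5, 31.3 and 25.5 CPM with HU, a change of 0.16. In each comparison every HU library lay on one side of every untreated library, which is what drew attention to it. Neither change passed the adjusted threshold, and the difference between them was not tested.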

How the results depend on the processing

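Depth limits the members below 1 CPM, and with 3 replicates a group the calls move with single libraries. Members called in the ratio of polysomal to total RNA numbered 27 to 47 in siCTRL NT, 38 to 39 in siCTRL HU, 23 to 40 in siLSM14A NT and 39 to 44 in siLSM14A HU when 1 replicate was left out, against 44, 42, 36 and 44 with all. The low ends came without siCTRL NT replicate 2 (27) and without siLSM14A NT replicate 3 (23), and the high ends without siCTRL NT replicate 3 (47) and siLSM14A NT replicate 1 (40). The cause was not tested. Medians over the members ran from 0.62 to 0.74, 0.43 to 0.81, 0.36 to 0.55 and 0.65 to 0.69. With the GC correction they were 0.47 in siCTRL NT, 0.58 in siCTRL HU, 0.25 in siLSM14A NT and 0.53 in siLSM14A HU, and with the replicate block and GC correction 0.45, 0.55, 0.26 and 0.51. Of the members tested, 11, 13, 8 and 12 changed sign with the GC correction. With library sizes alone, chosen after seeing the data, they were 0.35, 0.30, 0.19 and 0.34 in siCTRL NT, siCTRL HU, siLSM14A NT and siLSM14A HU, as every gene shifts down with that scale. Without the filter the median in siLSM14A HU was 0.55, where more genes of low counts enter.

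With the replicate block, 34, 35, 24 and 35 members were higher and 10, 10, 9 and 9 lower. Pairing by number changed calls of COL4A1, COL1A1 and ITGA6 as given above, and among the other members those of COL16A1, COL8A1, COL7A1, COL4A5 and COL4A4 in siCTRL HU, ITGA1, ITGA11, COL8A2, ITGB2 and COL4A4 in siCTRL NT and COL14A1 in siLSM14A NT. In total RNA, knockdown without HU gave 3 members by DESeq2 and 0 to 1 with a replicate left out, against 1. Knockdown with HU gave 7 members with the block, 7 with block and GC correction, 3 by DESeq2, 0 to 2 with a replicate left out, and 1 each without the filter, with the GC correction, with all libraries and with library sizes alone, against 0. The cause was not tested. The call of 0 members held in the other tests of change under all alternatives run. COL9A3 changed sign with the GC correction (-0.18, -0.16, -0.25 and -0.0985 in siCTRL NT, siCTRL HU, siLSM14A NT and siLSM14A HU) and with block and GC correction (-0.20, -0.16, -0.25 and -0.0986), and ITGA6 did in siLSM14A HU (0.077 in both). Over the named members, 1687 values kept their side of the threshold, 80 no longer passed, 33 newly passed and these 10 reversed.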
